A study of Mus musculus with 14 samples.

Results

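The whole kidneys of 4 control mice were described on their own, without a comparison between groups: which genes were most abundant, which nephron segments they mark, and how much each gene differed between the 4 animals. These are the 4 libraries of the series labelled as actin-rtTA+ controls, out of 14 libraries in all. The series as a whole is a bulk RNA sequencing study of i-TERTci mice, in which doxycycline switches on a catalytically inactive telomerase reverse transcriptase and a collapsing glomerular disease follows. The remaining 10 libraries came from i-TERTci mice injected with DMSO or with GSK2830371, an inhibitor of the phosphatase WIP1, and they enter none of the values below. The controls were single transgenic: they carried the transactivator rtTA driven by an actin promoter and no tetop-TERTci transgene. They drank water with doxycycline for 30 days, and no injection is recorded for them. The labels used here give no strain, age or sex for these animals. All 4 animals therefore share the transgene and the antibiotic, and a kidney without either was not measured, so these levels describe doxycycline-treated carriers of rtTA. Each library is labelled as a separate replicate, and the spread between them contains both animal and technical differences.

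The kidney filters blood in glomeruli, whose podocytes hold the filtration slit, and recovers most of the filtrate in the proximal tubule, a segment rich in mitochondria. The loop of Henle then dilutes the fluid and builds the medullary salt gradient, and the distal tubule and collecting duct adjust sodium, potassium, calcium, acid and water under hormonal control. Each segment expresses its own transporters and secreted proteins, so that a whole-organ library holds a weighted sum of them. In such bulk samples, fewer cells of a type and less RNA per cell cannot be told apart.

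Levels between genes are given as TPM, transcripts scaled to the same total in each library, computed here from the recovered whole reads and the summed exon length of each gene. Levels of 1 gene between mice are given as normalised reads, which are reads divided by a median-of-ratios size factor of the 4 libraries. Spread is the SD over the 4 mice of log2(normalised reads + 1), and a gene was counted as measured at a mean of at least 100 normalised reads, which 12743 genes reached. Where 4 values stand in a row, they belong to control mice 1, 2, 3 and 4 in that order. An SD from 4 values is itself imprecise: its 95% chi-square interval runs from 0.567 to 3.73 times the value. Genes were ranked on these values, so no test was made on them. Where the SD of a single gene is given without 1 mouse, that mouse was chosen from the same values as the one far from the rest. Such an SD is bound to be smaller, and it only describes how close the remaining mice lay.

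The libraries held 48.5 to 64.6 M reads in genes. Reads from the mitochondrial genome made up 24.2%, 19.8%, 14.4% and 21.1% of them. Over measured genes, mice 2 and 4 were the closest pair, with an SD of the log2 difference of 0.327 and 107 genes that differed by 2-fold or more. Mice 1 and 3 were the farthest apart, with an SD of 0.527 and 609 such genes. In 694 measured genes (5.45%), 1 mouse stood apart from the other 3 in normalised reads, without log2, beyond Dixon's 95% critical value. Chance alone does this in about 1 of 20. The mouse apart was mouse 1 in 118 genes above and 133 below, mouse 3 in 155 and 146, mouse 2 in 34 and 24 and mouse 4 in 52 and 32. The differences between libraries also ran with base composition and gene length. In mouse 3 the median log2 deviation from the 4-mouse mean went from 0.19 in the 20% of genes with the lowest GC content to -0.19 in the 20% with the highest, while mouse 1 went from -0.14 to 0.10. In mouse 1 it went from 0.16 in the shortest 20% of genes to -0.19 in the longest 20%, and in mouse 4 from -0.12 to 0.17. With both gradients taken off, 43 of the 174 genes picked by the naming rule had an SD that moved by over 1.5 times, and counts over gene lists are given below with them taken off beside the plain counts.

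A few genes dominated the control kidney. The 10 most abundant genes made up 51.2% ± 6.80 of all TPM (SD, n = 4), and 8 genes were enough to reach a cumulative 50%. By contrast, 917 genes were needed for 80%. A level of at least 1 TPM was reached by 13738 genes, at least 100 TPM by 903 and at least 1000 TPM by 53. The most abundant gene was Gpx3, glutathione peroxidase 3, a secreted selenoprotein that the proximal tubule makes for the plasma, at 109070, 93922, 63211 and 92822 TPM. Kap, the kidney androgen-regulated protein of proximal tubule cells, was the only other nuclear gene above 10000 TPM, at 64391, 52946, 61327 and 41217 TPM. Their means were 89757 ± 19188 and 54970 ± 10367 TPM (SD, n = 4). Between these 2 genes and the next nuclear gene, the kallikrein Klk1 at 5029 ± 724 TPM, the level dropped steeply.

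Of the 20 most abundant genes, 8 were encoded by the mitochondrial genome. Of these, 6 were subunits of the respiratory chain: mt-Cytb of complex III averaged 87198 TPM, the complex I subunits mt-Nd2, mt-Nd1, mt-Nd4 and mt-Nd5 averaged 72786, 71459, 44760 and 28191 TPM, and mt-Co1 of complex IV averaged 52528 TPM. The other 2 were the mitochondrial ribosomal RNAs mt-Rnr2 and mt-Rnr1, at 4334 and 2437 TPM. All 13 mitochondrially encoded genes on the list summed to 395490, 358610, 282840 and 391860 TPM, the lowest in mouse 3. In normalised reads, 10 of the 13 were lowest in mouse 3, where 30.7% of all measured genes were lowest, and the median log2 deviation of the list was 0.47, 0.04, -0.69 and 0.11. With GC content and length taken off, 12 of the 13 were lowest in mouse 3.

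The nuclear part of the same 20 genes was mostly proximal tubule metabolism and secretion. Napsa, an aspartic protease of the lysosome, averaged 3809.5 ± 1077 TPM. Miox, which opens the ring of myo-inositol and is made almost only in kidney, averaged 3105 ± 243 TPM, and Pck1, the enzyme that commits oxaloacetate to gluconeogenesis, 2619.6 ± 1665 TPM. Slc34a1, the sodium-phosphate cotransporter of the brush border, averaged 2934 ± 801 TPM. Tcn2, the plasma carrier of vitamin B12, averaged 3219.9 ± 389.5 TPM, and Igfbp7, a secreted binding protein of insulin-like growth factors, 3591 ± 325 TPM. Umod, the thick ascending limb protein uromodulin, averaged 2533 ± 1129 TPM. The translation elongation factor Eef1a1, which all cells use, averaged 3042 ± 500.2 TPM.

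**Figure D1:**
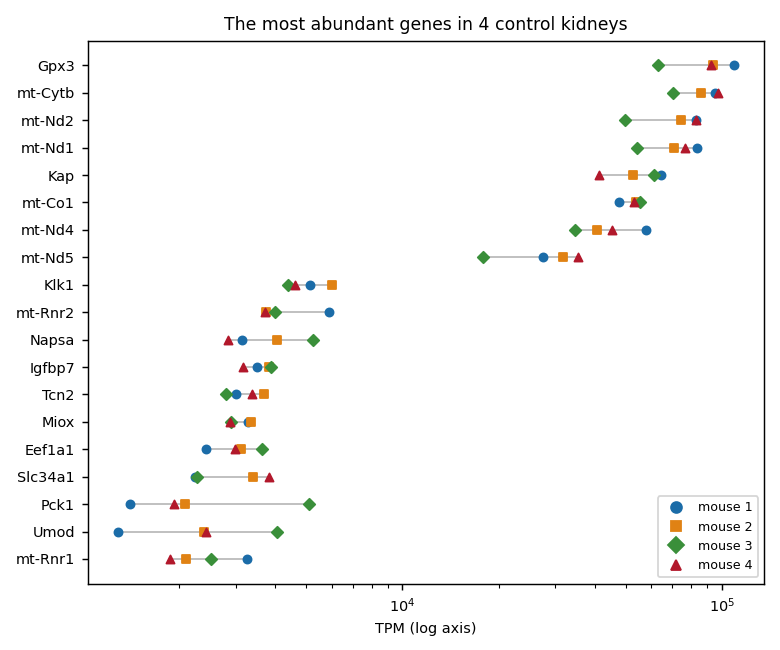
TPM of the reported genes among the 20 most abundant, 1 point per control mouse on a log axis, with a grey line from the lowest to the highest mouse. Gpx3, Kap and 6 mitochondrial subunits stand above 10000 TPM on average, and the other 11 genes shown average between 2437 and 5029 TPM.

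TPM is a share of a fixed total, so an abundant gene moves the TPM of all others. The 10 most abundant genes took 58.0%, 51.5%, 41.8% and 53.4% of TPM, and the TPM of the median measured gene was 7.97, 10.1, 13.3 and 10.1. Mouse 3 thus had the smallest share in the leading genes and the highest TPM for a typical gene. For this reason, differences of single genes between mice are given below in normalised reads. Summed TPM of a list is given for its level, and its differences between mice carry this shift.

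The promoter of Kap, the leading tubule-specific gene besides Gpx3, is printed here because it carries a TATA box at the canonical distance, which few genes of the kidney do. The 250 bases before the start are from RefSeq, build GRCm38.p6, chr6:133853668-133853917, minus strand, with TATAAA in capitals; its first base lies 31 bases before the start.
Kap: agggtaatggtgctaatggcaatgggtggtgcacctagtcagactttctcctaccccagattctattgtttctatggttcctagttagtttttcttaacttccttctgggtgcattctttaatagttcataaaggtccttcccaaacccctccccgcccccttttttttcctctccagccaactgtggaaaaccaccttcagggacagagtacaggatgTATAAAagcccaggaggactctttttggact
TATAAA was searched on the gene's own strand, lying wholly within the bases 45 to 16 before the start. It occurred there in 1.54% of the 9893 measured genes with a promoter in the table. It occurred in 3.70% of the most variable 10% of measured genes and in 1.24% of the least variable 10%, and in 4 of the 70 genes with a promoter in the table among the 100 most abundant. A match describes these letters only.

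Segment genes were then read from 11 lists that hold 177 genes, all present in the table and 172 of them measured. Among the 100 most abundant genes, 21 were on these lists. The 2 glomerular lists had the smallest sums on average over the 4 mice, although in mouse 4 the macula densa and juxtaglomerular list, at 497 TPM, was below the podocyte list. Podocyte genes summed to 392, 458, 561 and 540 TPM. Nphs1, which encodes the slit protein nephrin, stood at 1525, 1935, 1493 and 1759.7 normalised reads and averaged 10.5 ± 1.98 TPM. Podxl, the sialomucin of the podocyte surface, averaged 105 ± 23.1 TPM and is also made by endothelium. The transcription factor Wt1 averaged 4.43 TPM. All 18 podocyte genes were measured, and their SDs ran from 0.11 to 0.44 with a median of 0.24. Of these genes, 12 were highest in mouse 4 and 10 lowest in mouse 3, beside 29.5% and 30.7% of all measured genes. With GC content and length taken off, the counts were 9 and 12, and the median log2 deviation in mouse 4 went from 0.24 to 0.090. In summed TPM, by contrast, mouse 3 was the highest. The parietal list was led by Pax8 and Pax2, transcription factors of kidney epithelium at 59.01 and 45.7 TPM, and its claudin Cldn1 averaged 6.99 TPM.

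The early proximal tubule, segments S1 and S2, gave by far the largest sum, 190600, 168740, 150890 and 155840 TPM over 30 genes, most of it from Gpx3 and Kap. Slc34a1 stood at 313740, 398450, 198980 and 455210 normalised reads, lowest in mouse 3 and highest in mouse 4. The glucose transporter Slc5a2, or SGLT2, stood at 28864, 27745, 14901 and 28764. Mice 1, 2 and 4 lay close together for Slc5a2 and mouse 3 was alone below them. Without mouse 3, the SD of log2 of Slc5a2 went from 0.47 to 0.032 and that of Slc34a1 from 0.52 to 0.27. The endocytic receptors Lrp2 and Cubn, which retrieve filtered protein, had their lowest values in mouse 1 and their highest in mouse 4, at 90853, 109420, 123420 and 159600 and 29062, 31793, 31494 and 48706 normalised reads. The organic anion transporter Slc22a6 stood at 34390, 38480, 22673 and 48085. Pck1 differed in the other direction, at 143590, 179020, 325700 and 167640, with mouse 3 highest, and without mouse 3 its SD of log2 went from 0.52 to 0.16. Fbp1, the gluconeogenic fructose bisphosphatase, differed little, at 41999, 44048, 43153 and 43079 normalised reads and an SD of log2 of 0.028. That SD was 0.14 with GC content and length taken off. Of the 30 genes, 14 were in the most variable 10% of all measured genes, which by construction holds 10.0% of them, and Fbp1 was in the least variable 10%. The median SD of the list was 0.39, against 0.237 over all measured genes.

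The 2 leading genes of this segment were themselves spread widely. Gpx3 stood at 5930300, 4258900, 2143800 and 4291700 normalised reads, an SD of log2 of 0.62 that went to 0.27 without mouse 3. Kap stood at 1365200, 936240, 811090 and 743130, and its SD of 0.39 went to 0.17 without mouse 1. Mouse 1 was the highest for both genes, and mouse 3 was lowest for Gpx3 but not for Kap. Slc7a8, an amino acid exchanger, had the largest SD of log2 on the list, 0.75, at 23388, 30746, 11277 and 36368 normalised reads.

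The straight proximal segment, S3, summed to 8409.8, 11381, 15038 and 10046 TPM over 25 genes, of which 22 were measured. Aadat, an aminotransferase of the kynurenine and lysine pathways, averaged 2294 ± 780.1 TPM and stood at 100410, 115530, 138020 and 118250 normalised reads. The organic anion transporter Slc22a7 stood at 14138, 20904, 15715 and 19766, lowest in mouse 1. The membrane protease Mep1a averaged 692 ± 202 TPM. Cyp2a4, a cytochrome P450 that is higher in female than in male mouse kidney, stood at 23451, 21816, 19513 and 23639 with an SD of log2 of 0.13. The spread was wider for 2 S3 genes. Rnf24, a RING finger protein, stood at 28883, 7489, 22791 and 18189, lowest in mouse 2, with an SD of log2 of 0.85. Slco1a6, an organic anion transporter, stood at 6545, 8132, 20173 and 5668, highest in mouse 3, and without that mouse its SD went from 0.82 to 0.26. Rnf24 was named after its values were seen.

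In the loop of Henle, the thin limb list was led by Aqp1, the water channel it shares with the proximal tubule, at 812 ± 197 TPM. Aqp1 stood at 48183, 50147, 53178 and 52917 normalised reads and was among the steadiest segment genes, with an SD of log2 of 0.068. With GC content and length taken off, its SD was 0.17. The chaperone Cryab averaged 436 ± 48.5 TPM. The thick ascending limb summed to 2883, 4768, 6856 and 4713 TPM over 20 genes. Umod stood at 106770, 164840, 208330 and 171140 normalised reads, lowest in mouse 1. The cotransporter Slc12a1, or NKCC2, the target of loop diuretics, stood at 18568, 31870, 40588 and 37263. Egf, the growth factor precursor that this segment secretes into urine, stood at 27919, 62590, 70910 and 67909. For all 3 genes mouse 1 lay below the other 3 mice and mouse 3 was the highest. Without mouse 1, the SD of log2 of Umod went from 0.41 to 0.18. Of the 20 genes, 11 were lowest in mouse 1, where 36.9% of all measured genes were lowest. With GC content and length taken off the count was 13, and the median log2 deviation of the list in mouse 1 was -0.25, against -0.24 before.

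The macula densa senses salt at the end of this limb and steers renin release from juxtaglomerular cells. Ren1, the renin gene, stood at 14426, 10364, 13127 and 10227 normalised reads and averaged 301 ± 84.05 TPM. Ace, which converts angiotensin I and is abundant on the proximal brush border, averaged 199 ± 48.6 TPM. Nos1 of the macula densa averaged 0.766 TPM and Ptgs2 0.292 TPM, the lowest levels among the genes named here from the segment lists. In the distal convoluted tubule, Fxyd2, the gamma subunit of the sodium pump, led at 2149.5 ± 579.9 TPM and is also abundant in the thick limb and proximal tubule. It stood at 334680, 243180, 109450 and 196400 normalised reads, and its SD of 0.68 went to 0.39 without mouse 3. The thiazide-sensitive cotransporter Slc12a3, or NCC, stood at 36864, 49262, 39324 and 52616 with an SD of 0.25. Pvalb, a calcium-binding protein of this segment and of fast muscle, averaged 118 ± 20.5 TPM. On this list, 9 of the 14 genes were lowest in mouse 1 and 10 were highest in mouse 4, beside 36.9% and 29.5% of all measured genes, and both counts were the same with GC content and length taken off.

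In the connecting tubule, Klk1, the tissue kallikrein that is secreted into urine, stood at 165260, 161940, 88216 and 126550 normalised reads, lowest in mouse 3. The calcium-binding proteins S100g and Calb1 averaged 1025 ± 393 and 169.5 ± 36.2 TPM. Calb1 differed little between mice, at 18515, 20154, 19559 and 20846 and an SD of log2 of 0.073, whereas S100g stood at 13186, 11473, 14172 and 7942, lowest in mouse 4. With GC content and length taken off, the SDs of Calb1 and S100g were closer, at 0.18 and 0.22. Of the principal cell genes, the vasopressin-regulated water channel Aqp2 stood at 20281, 17291, 22907 and 16020 and averaged 567 ± 198 TPM. The sodium channel subunit Scnn1a averaged 158 ± 18.7 TPM, and Hsd11b2, which shields the mineralocorticoid receptor from glucocorticoids, 330.4 ± 42.2 TPM. Intercalated cells secrete acid or base. Car2, carbonic anhydrase 2, stood at 12587, 16692, 14652 and 18685, the ammonia channel Rhcg at 4694, 4132, 4866 and 4214, and the proton pump subunit Atp6v0a4 at 6223, 9406, 10921 and 10749 normalised reads. The anion exchangers Slc4a1 of the acid-secreting type and Slc26a4 of the base-secreting type averaged 35.8 ± 7.34 and 24.8 ± 9.46 TPM. The 18 intercalated cell genes had a median SD of 0.24, and none was in the most or the least variable 10%.

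**Figure D2:**
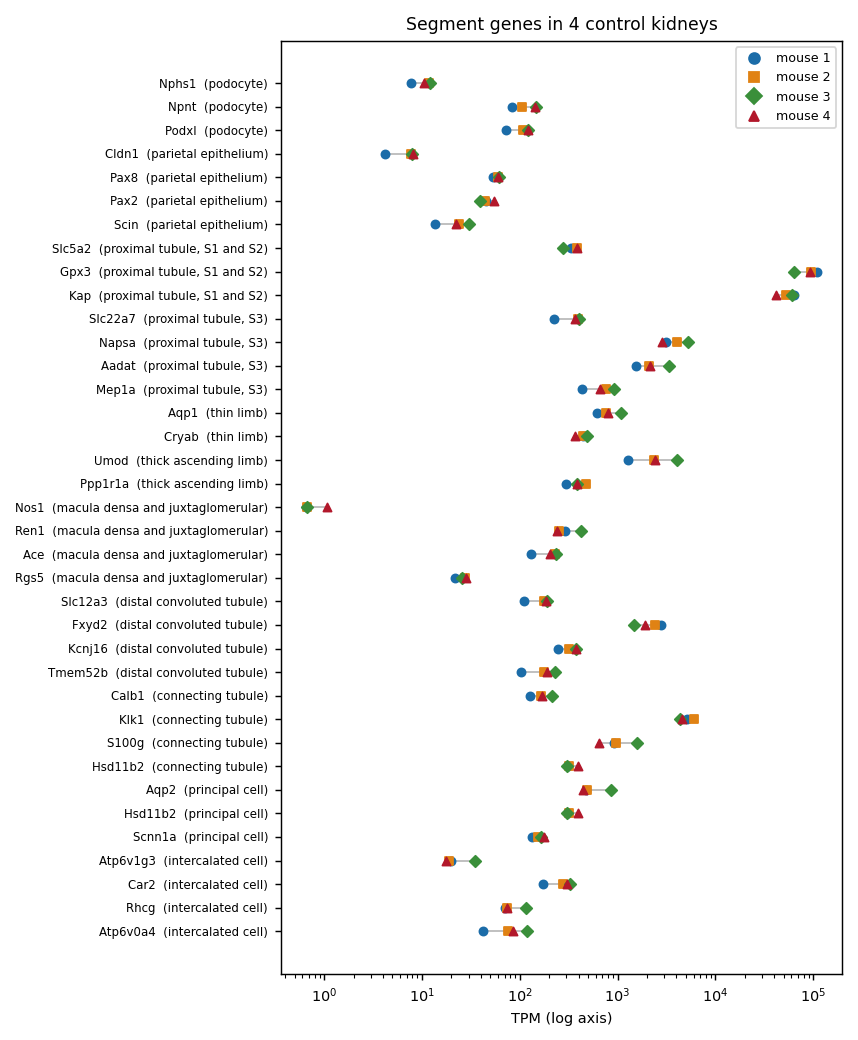
TPM of the reported genes among the first listed and the 3 most abundant of each segment list, 1 point per control mouse on a log axis, with a grey line from the lowest to the highest mouse. Levels run from Nos1 at 0.766 TPM to Gpx3 at 89757 TPM on average.

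Segment genes were spread a little more widely than the typical gene, mainly through the S1 and S2 list. Their median SD of log2 was 0.264, against 0.237 over all measured genes. Of the 172, 28 (16.3%) were in the most variable 10% and 5 (2.91%) in the least variable 10%. Without the S1 and S2 list, 14 of the other 142 (9.86%) were in the most variable 10%, with a median SD of 0.251. The highest mouse was 2-fold or more above the lowest in 27 of all 172 (15.7%), beside 9.49% of all measured genes. None of the 172 had an SD of log2 of 1 or more.

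Defining genes of podocytes, proximal tubule, thick limb, principal and intercalated cells were all present in every mouse, as the whole-organ label says. Adrenal markers were low. The 9 adrenal genes summed to 10.5, 12.6, 15.9 and 11.6 TPM, most of it from Scarb1 and Akr1b7 at 6.55 and 4.61 TPM on average; the steroidogenic genes Star and Cyp21a1 averaged 0.451 and 0.0429 TPM. The 11 urothelial genes summed to 135, 99.5, 119 and 90.2 TPM, led by the prostate stem cell antigen gene Psca at 55.5 TPM; the uroplakins Upk1a, Upk3a, Upk2 and Upk1b averaged 14.2, 12.3, 11.2 and 4.97 TPM. Of the 7 measured urothelial genes 6 were highest in mouse 1, with and without GC content and length taken off, beside 27.4% of all measured genes. The uroplakins were named after their values were seen, as were Fos and mt-Nd6 below. Of the 15 neutrophil genes only Csf3r and Lcn2 were measured, and Mpo and Ly6g had no read in any control. The summed TPM of the white adipocyte list was 984, 1066, 1756 and 1115, carried by Scd1 and Lpl, which tubule cells also express.

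The typical gene differed little between the 4 animals. The median SD of log2 over the 12743 measured genes was 0.237, a coefficient of variation of 16.2%, and in 11534 genes (90.5%) the highest mouse was less than 2-fold above the lowest. An SD of log2 of 1 or more was found in 85 genes (0.667%). Counting error was a small part of this at most levels. The median SD was 0.227 at 300 to 1000 normalised reads and 0.264 at 10000 to 100000, whereas counting error alone gives a median of 0.0594 and 0.0115. Only 234 genes had an SD below that of counting error. The 32 genes above 100000 normalised reads were more spread than the rest, with a median SD of 0.397. The most variable 10% began at an SD of 0.436 and the least variable 10% ended at 0.107.

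**Figure D3:**
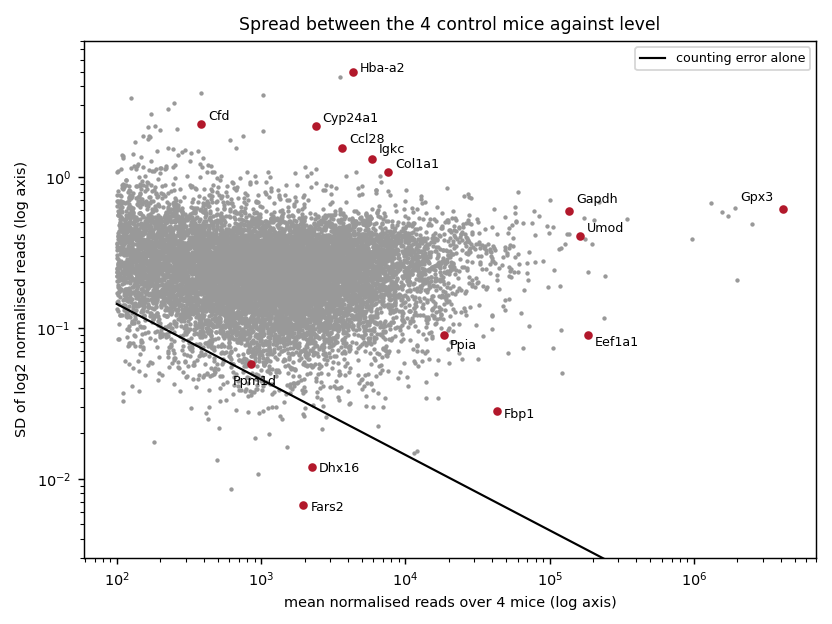
SD of log2 normalised reads over the 4 control mice against the mean level, 1 grey point per measured gene, both axes on a log scale. The black line is the SD that counting error alone gives, and named genes are in red: Hba-a2 lies highest at 4.97, and Fars2, at 0.0067, lies below the line.

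Among the most variable genes, the alpha globin gene Hba-a2 (chr11:32296489-32297298, plus strand) came first. It stood at 11052, 4.4, 2865 and 3366 normalised reads: mouse 2 was almost without reads, and mouse 1 was the highest. Without mouse 2 its SD of 4.97 was 1.06. The near-identical alpha globin gene Hba-a1, whose transcript is 99.8% identical to it over 97.1% of its length, stood at 39739, 46513, 27188 and 40940. Summed, the pair stood at 50791, 46517, 30052 and 44306 normalised reads, with an SD of 0.33. How the authors' counting divided reads between the 2 copies is not given in the sources used here, so the value of Hba-a2 alone is uncertain.

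Mouse 2 was also the lowest for 3 genes typical of white fat. Cfd, the adipocyte-secreted complement factor D, stood at 578, 21.1, 438 and 485 normalised reads, and without mouse 2 its SD of 2.25 went to 0.20. Adiponectin, Adipoq, had 61.6, 0, 55.6 and 50.02 normalised reads, and the lipid droplet protein Plin1 40.1, 5.29, 53.7 and 107; both were below the mean of 100 and were named after their values were seen. Of the 14 measured genes on the white adipocyte list, 4 were in the most variable 10% and 5 were lowest in mouse 2, with and without GC content and length taken off, beside 12.9% of all measured genes. Car3, a carbonic anhydrase abundant in fat and muscle, had its lowest value in mouse 3 instead, at 4082, 3020.5, 679 and 1834. The median log2 deviations of the white adipocyte list were -0.070, -0.008, 0.138 and 0.020. With GC content and length taken off they were -0.019, -0.092, 0.036 and -0.025. Brown adipocyte genes went the other way. Of the 5 measured, 4 were highest in mouse 2, or 2 with both taken off, beside 15.4% of all measured genes.

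Cyp24a1, the mitochondrial hydroxylase that inactivates vitamin D (chr2:170482708-170497145, minus strand), was the second most variable gene among those with a mean of at least 1000 normalised reads, predicted genes left out. It stood at 1516, 4073, 159 and 3783 normalised reads. Mice 2 and 4 were high, mouse 1 was intermediate and mouse 3 was more than 8-fold below its nearest neighbour. Without mouse 3 the SD of 2.18 went to 0.79. The vitamin D receptor Vdr stood at 12076, 19444, 11654 and 18486, with the same 2 mice high. Cyp27b1, the enzyme that activates vitamin D in the proximal tubule, stood at 169.5, 106, 55.6 and 158, again lowest in mouse 3. Vdr and Cyp27b1 were added after their values were seen.

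Several other variable genes had 1 mouse far from the rest. The hedgehog transcription factor Gli2 stood at 17.5, 66.9, 539 and 30.02 normalised reads and albumin, Alb, at 245, 175, 1937 and 325, both highest in mouse 3. Ces1g, a carboxylesterase, stood at 297, 477, 18.2 and 258, Hmmr, a mitotic spindle protein, at 141, 142, 19.2 and 130.1, and Cox6a2, the muscle-type subunit of cytochrome oxidase, at 269, 462, 47.01 and 406. Mouse 3 was the lowest for all 3 of these. In mouse 4, the collagen Col6a6 stood at 67.8, 126, 60.4 and 644 and the glutathione peroxidase Gpx6 at 141, 198, 173 and 1909, both highest there. Mouse 2 was lowest for the cytokine receptor Il20rb, at 637, 47.6, 169.8 and 131, and for the methyltransferase Inmt, at 2613, 625, 2742 and 2874. Ccl28, a chemokine of mucosal epithelia, was also lowest in mouse 2 and highest in mouse 1, at 7308, 662, 4809 and 1772. Col1a1, a chain of type I collagen, stood at 11984, 9199.9, 2192 and 7034, and without mouse 3, its lowest, the SD of 1.08 went to 0.38.

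Immune genes formed a group in which mouse 1 was high. Igkc, the constant part of the kappa light chain made by plasma cells, stood at 14222, 5002, 2476 and 1792 normalised reads and Igha, the heavy chain of immunoglobulin A, at 9314, 4236, 3149.6 and 1541. Both genes were highest in mouse 1 and lowest in mouse 4. The T cell receptor constant gene Trac stood at 304, 182, 101 and 127 and the chemokine Ccl5 at 382, 163, 106 and 44.5. Cxcl9, an interferon-gamma-induced chemokine, stood at 471, 163, 107 and 73.4. Without mouse 1, the SD of Igkc went from 1.32 to 0.76 and that of Cxcl9 from 1.15 to 0.57.

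Class II antigen presentation genes were also highest in mouse 1 and lowest in mouse 4. The class II gene H2-Ab1 stood at 11859, 5635, 4295 and 3384 normalised reads, H2-Aa at 5725, 3304, 3902 and 2303 and H2-Eb1 at 3522, 2251, 2631 and 1533. B2m, the light chain of class I molecules, stood at 43494, 25312, 19409 and 21245, and without mouse 1 its SD went from 0.52 to 0.19. H2-Aa and H2-Eb1 were added after their values were seen. Promoters are shown for these 2 genes, which carry the motif searched below, as 250 bases before the start from RefSeq build GRCm38.p6. They lie at chr17:34287824-34288073 on the minus strand and chr17:34305617-34305866 on the plus strand. H2-Ab1 had the same highest and lowest mouse and is not shown, so the order of the mice did not set this choice. Whether the motif has a part in the spread was not tested. Capitals mark CTGATTGG, the Y box of class II promoters, whose first base lies 51 bases before the start in H2-Aa and 62 in H2-Eb1.
H2-Aa: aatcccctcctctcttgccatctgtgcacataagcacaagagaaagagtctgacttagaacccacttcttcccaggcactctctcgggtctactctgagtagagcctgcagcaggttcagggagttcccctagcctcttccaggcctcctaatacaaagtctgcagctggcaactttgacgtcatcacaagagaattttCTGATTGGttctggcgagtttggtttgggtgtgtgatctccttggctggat
H2-Eb1: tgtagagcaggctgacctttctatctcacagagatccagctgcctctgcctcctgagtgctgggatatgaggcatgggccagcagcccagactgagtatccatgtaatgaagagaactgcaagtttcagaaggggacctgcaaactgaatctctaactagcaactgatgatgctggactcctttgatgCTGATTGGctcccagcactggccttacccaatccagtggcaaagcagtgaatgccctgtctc
CTGATTGG was searched on both strands over the 250 bases before the start. It occurred in 7 of the 15 genes of the antigen presentation list that had a promoter in the table (46.7%). Beside this stand 5.85% of the 9893 measured genes with a promoter and 6 of 49 (12.2%) among the 100 most variable. The 7 genes of the list were H2-Aa and H2-Eb1 of class II, and H2-D1, H2-Q6, H2-Q7, H2-T23 and Tap1 outside class II. The class II gene H2-Ab1 was not among them. The motif was searched after the values were seen.

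Read as whole lists, the immune lists had their highest median deviation in mouse 1. Of 19 measured macrophage and dendritic cell genes, 15 were highest in mouse 1 and 15 were lowest in mouse 4, where 27.4% and 19.5% of all measured genes were. The median log2 deviations of that list from the 4-mouse mean were 0.40, -0.07, 0.02 and -0.50. Interferon-stimulated genes were highest in mouse 1 in 24 of 25, with deviations of 0.51, -0.02, -0.16 and -0.34. The antigen presentation list had 16 of 19 highest in mouse 1 and 13 lowest in mouse 4, with deviations of 0.50, 0.05, -0.17 and -0.42. Only 4 of 19 T and natural killer cell genes and 7 of 22 B and plasma cell genes were measured, and 4 and 5 of these were highest in mouse 1. With GC content and length taken off, the corresponding counts highest in mouse 1 were 14 of 19, 21 of 25, 17 of 19, 4 of 4 and 5 of 7. The summed TPM of the B and plasma cell list was 1183, 564, 484 and 283, that of the macrophage and dendritic list 949.8, 707, 920.3 and 503 and that of the antigen presentation list 2868, 2147, 2422 and 1668, each highest in mouse 1. The interferon-stimulated and neutrophil lists summed to 399, 309.9, 421 and 279.9 and to 11.7, 12.8, 14.8 and 4.77 TPM, both highest in mouse 3.

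**Figure D4:**
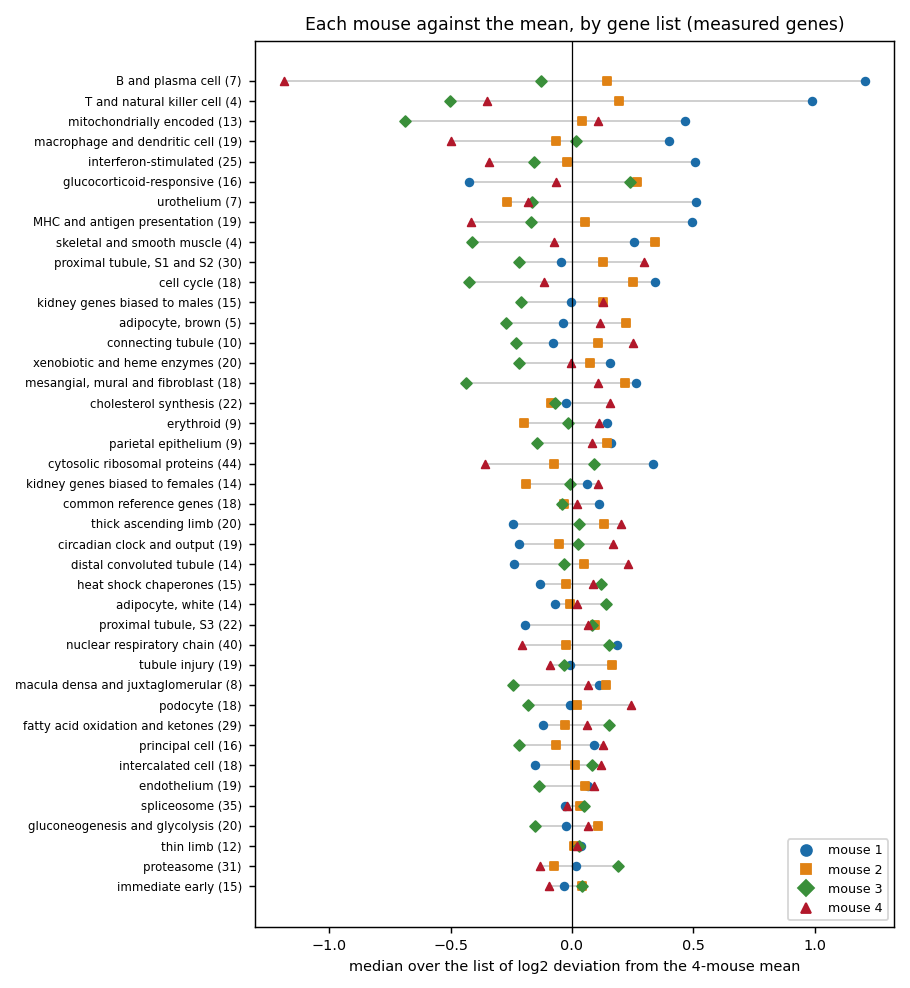
Median over each gene list of the log2 deviation of each control mouse from the 4-mouse mean, for lists with at least 4 measured genes (number in brackets), ordered by the median SD of the list. Immune lists reach from -1.19 in mouse 4 to 1.21 in mouse 1, while the thin limb and immediate early lists stay within 0.1 of the mean.

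Mouse 1 high and mouse 4 low was not particular to immune lists. Of 44 measured cytosolic ribosomal protein genes, 41 were lowest in mouse 4 and 35 highest in mouse 1, with median deviations of 0.33, -0.07, 0.09 and -0.36, which rank the mice as the macrophage and dendritic list does. The counts were 38 and 33 of 44 with GC content and length taken off. Nuclear genes of the respiratory chain ranked the mice in the same way before this correction, with 0.18, -0.02, 0.15 and -0.21. Of these 40 genes, 29 were lowest in mouse 4, or 23 with GC content and length taken off, beside 19.5% of all measured genes. Highest in mouse 1 were 26, or 18 with both taken off, beside 27.4%. With both taken off the deviations were 0.074, -0.009, 0.107 and -0.105, so that mouse 3 was the highest.

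Other lists had other orders. Mesangial, mural and fibroblast genes were lowest in mouse 3 in 13 of 18, with median deviations of 0.27, 0.22, -0.44 and 0.11, and cell cycle genes in 13 of 18, with 0.34, 0.25, -0.42 and -0.12, beside 30.7% of all measured genes. The counts were 14 and 13 with GC content and length taken off. Mki67, a proliferation marker, stood at 551, 571, 177 and 526 normalised reads. Glucocorticoid-responsive genes had a median deviation of -0.42 in mouse 1, where 8 of 16 were lowest, and 9 of the 16 were in the most variable 10%. Circadian genes were lowest in mouse 1 in 12 of 19. Beside these stand 36.9% of all measured genes, and with GC content and length taken off the counts were 7 of 16 and 11 of 19. Nr1d1, a repressor in the clock, stood at 9479, 8722, 4474 and 11643, and Dbp, a clock output factor, at 12560, 11443, 8102 and 12041. Both of these clock genes were lowest in mouse 3 instead. Immediate early genes, which respond within minutes to handling and ischaemia, had a median SD of 0.17, and none of the 15 measured was in the most variable 10%. The 8 that were not measured, Fos among them at 54.5, 51.97, 78.7 and 24.5 normalised reads, had SDs of 0.19 to 1.24 at levels where counting error is larger.

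Single metabolic genes also separated 1 mouse from the rest. Ppara, the nuclear receptor of fatty acid oxidation, stood at 507, 1707, 1406 and 1618 normalised reads, lowest in mouse 1. Gstm1, a glutathione transferase, stood at 86240, 43455, 44985 and 44638, highest in mouse 1. Of the fatty acid oxidation list, 14 of 29 genes were lowest in mouse 1 and 16 highest in mouse 3, beside 36.9% and 27.7% of all measured genes, and the counts were 14 and 17 with GC content and length taken off. Of the cholesterol list, 6, 5, 9 and 2 of 22 were lowest in mice 1 to 4. Their median SDs were 0.24 and 0.34.

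Pseudogenes and predicted genes were common among the most variable features. Of the 85 genes with an SD of log2 of 1 or more, 18 were annotated as pseudogenes (21.2%), against 0.871% of all measured genes. A gap of 8-fold or more between neighbouring mice was found in 16 genes (0.126%), and 8 of the 16 were pseudogenes. Rps2-ps10, a copy of a ribosomal protein gene, stood at 2205, 9.69, 915 and 983 normalised reads and Atp6v0c-ps2, a copy of a proton pump subunit gene, at 1734, 82.8, 1172 and 1159.5; mouse 2 was the lowest for both. Ldhb-ps, a copy of a lactate dehydrogenase gene, stood at 177, 192, 2462 and 189, highest in mouse 3. Gm4875, whose transcript is 95.7% identical to Lasp1, stood at 2.05, 266, 5.76 and 225, high in mice 2 and 4. The non-coding gene Gm43305 split the mice into a different pair, at 42.1, 7014, 7007 and 17.8, and Gm36325 into another, at 753, 745, 23.02 and 4.45. No 2 of these 3 last genes divided the 4 mice in the same way. The genes of this paragraph lie outside the naming rule and were chosen after their values were seen.

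**Figure D5:**
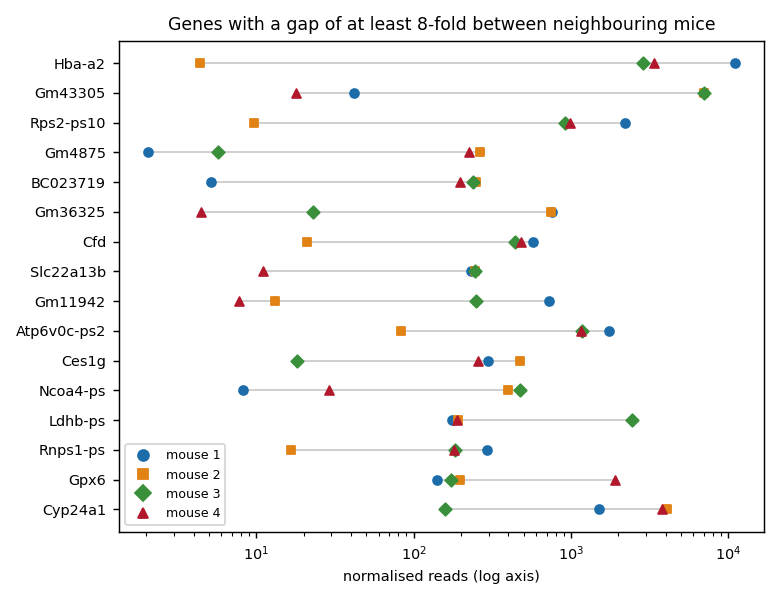
Normalised reads of the 16 measured genes with a gap of at least 8-fold between neighbouring mice, 1 point per control mouse on a log axis, with a grey line from the lowest to the highest mouse. Hba-a2, Rps2-ps10, Cfd and Atp6v0c-ps2 are lowest in mouse 2, and Gm43305 is high in mice 2 and 3 only.

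Near-identical copies make part of these values uncertain. Of the 82 genes with an SD of 1 or more that have a transcript in the annotation, 18 had another gene at least 95% identical over at least 50% of the transcript. Of the 100 least variable genes 1 had such a copy. Those 100 had a mean of at least 1000 normalised reads and were all protein-coding, against 57.6% of the 85 genes with an SD of 1 or more. These sets are therefore not alike, and the share over all measured genes was not computed. When each of the 18 genes was summed with its most abundant copy, 17 of the 18 sums had an SD under 1, and in most cases the copy was far more abundant. Atp6v0c-ps2 is a case of comparable levels: the SD was 2.01 for the pseudogene, 0.38 for Atp6v0c and 0.072 for their sum. The overlapping genes Hyal1 and Naa80 stood at 2189, 443, 1274 and 535 and 14662, 3997, 4119 and 4182, both highest in mouse 1, and their reads cannot be told apart where they share sequence. The mitochondrial genes mt-Co2, mt-Co3 and mt-Atp6 were listed at only 67.7, 36.4 and 79.2 TPM beside 52528 TPM for mt-Co1. Each has a 100% identical nuclear copy on chromosome 1, Gm28661, Gm28437 and Gm10925. The genes mt-Nd6 and mt-Atp8, for which no such copy was found, were also low at 28.6 and 23.7 TPM, whereas mt-Nd4, with a 100% identical copy over 63.6% of its transcript, was not. The levels of the low mitochondrial genes are uncertain, and the part of the copies in them was not tested.

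The least variable genes, among those with a mean of at least 1000 normalised reads, were led by Fars2. Fars2, the mitochondrial phenylalanine tRNA synthetase, stood at 1966, 1958, 1961 and 1979 normalised reads, an SD of log2 of 0.0067, below the 0.032 that counting error alone gives. Dhx16, a splicing helicase, stood at 2241, 2259, 2228 and 2270, and Laptm4a, a lysosomal membrane protein, at 11437, 11424, 11437 and 11668. Next came Tcf25, Gart, an enzyme of purine synthesis, Greb1, Inpp5k, a lipid phosphatase, and Nipsnap1, at SDs of 0.015 to 0.022. Among the 20 steadiest were also the deacetylase Sirt3, the chromatin remodelling subunit Smarcd2, the other phenylalanine synthetase gene Farsa, the peptidase Pepd and Fbp1. All 100 of the least variable genes were protein-coding, and their median mean level of 2492 normalised reads was close to the 2567 of all genes above 1000. Membership of this list was not stable: 22 to 48 of the 100 were kept when 1 mouse was left out, 9 with GC content and length taken off, and 0 when libraries were scaled by total reads outside the mitochondrial genome. The order of the steadiest genes therefore holds for these 4 libraries and this scaling alone.

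Commonly used reference genes were not uniformly steady. Tuba1b, Ppia and Eef1a1 had SDs of log2 of 0.078, 0.09 and 0.09, and these 3 of the 18 were in the least variable 10%. With GC content and length taken off, their SDs were 0.078, 0.13 and 0.12. Ppia, the cyclophilin A gene, stood at 20148, 18919, 18250 and 17385 normalised reads. Gapdh and B2m were in the most variable 10%. Gapdh stood at 170200, 154050, 69643 and 152470: mouse 3 was alone at less than 50% of the others, and without it the SD went from 0.60 to 0.088. Actb, beta actin, stood at 64305, 45924, 36078 and 48994 with an SD of 0.34, Hprt at 1244, 1048, 1721 and 994 with 0.36, and Tbp at 805, 1078, 825 and 1103 with 0.24. The median SD of the 18 was 0.29, above the 0.237 of all measured genes.

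Tert and Ppm1d, the genes that the wider study turns on, were measured in these controls. Tert, telomerase reverse transcriptase, stood at 109, 174, 140.1 and 131 normalised reads and averaged 1.01 ± 0.307 TPM. Ppm1d, which encodes WIP1, stood at 814, 838, 891 and 869 with an SD of log2 of 0.058, beside 0.049 from counting error alone. Xist, the RNA of the inactive X chromosome, is not such a gene and was named beside them. It stood at 13455, 10239, 13164 and 14743 normalised reads in the 4 animals and averaged 29.8 ± 7.44 TPM. The sex of the animals was not tested.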

How the data were processed

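Whole-kidney RNA was sequenced in 14 mice, and the 4 controls were used here. The tools listed per the submitters' processing notes are STAR, DESeq2, Trimmomatic and FastQC, without versions or roles, and the listed build is mm10. Which counter, gene annotation and strand option produced the reads per gene is not given in the sources used here. Per the labels' protocols, RNA came from an RNeasy Micro kit with DNase treatment, and only samples with an integrity number above 7 were sequenced. The deposited values are a signal per gene, which the authors made by dividing whole reads by 1 size factor per library. The plan had assumed raw counts. All deposited values of the 4 controls were whole multiples of the column's step within 0.001 (100%), so whole reads were recovered, and those of the controls were the same in both tables at all 23682 shared genes (0 mismatches). The table holds 24221 genes, of which 23278 (96.1%) matched GENCODE M21 (GRCm38) and gave a length.

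TPM was computed from these reads and merged exon lengths, and normalised reads from median-of-ratios factors of the 4 libraries, with a pseudocount of 1 for log2. The members and the 43 gene lists (828 symbols, 816 found, 689 measured) were chosen with earlier results of these data known. Named genes are the 20 most abundant, the first listed and the 3 most abundant of each segment list, the 20 most variable at a mean of at least 100 and of at least 1000, the 20 least variable at 1000, every reference gene, the most abundant and most variable gene of every other list, and Tert, Ppm1d and Xist; a few that this rule picks are not reported here. Some list members given above lie outside this rule, and no set rule picked them. Among them are Lrp2, Cubn, Slc22a6, Slc7a8, Slc12a1, Egf, Slc4a1, Slc26a4, Wt1 and Ptgs2. Predicted genes and pseudogenes were left out of the rankings (20 above the 20th most variable, and 3 at a mean of 1000). The gap rule, the copies (blastn, at least 95% identity over at least 50%), the promoter motifs and the removal of GC and length trends were chosen after seeing the data. The spread calculation was tested on simulated data. Alternatives covered the scaling, minimum, pseudocount, measure of spread, gene length and each mouse left out. R 4.3.3, edgeR 4.0.16, DESeq2 1.42.0, Python 3.11.15, matplotlib 3.10.9 and BLAST 2.17.0 were used.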

Additional observations from a re-analysis of the deposited data

Results flagged for a closer look

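Single control mice stood apart from the other 3 in 27 of the 203 measured genes examined because the text or its naming rule names them: the gap to the nearest other mouse, as a share of the whole range on the log2 scale, was above Dixon's 95% critical value for 4 samples. Chance alone does this in about 1 of 20 groups of 4. The 5.45% of all measured genes given above was counted on normalised reads without log2. Variable genes were named on purpose and the scales differ, so these shares are not compared. All values below are normalised reads, with the range of the other 3 mice after them. Mouse 1 was alone low for Scin at 1233 (1689 to 1793), Ppara at 507 (1406 to 1707), Egf at 27919 (62590 to 70910) and BC023719 at 5.14 (197 to 248). Mouse 1 was alone high for mt-Rnr1 at 93615 (44923 to 50195), Gstm1 at 86240 (43455 to 44985) and Naa80 at 14662 (3997 to 4182). Mouse 2 was alone low for Cfd at 21.1 (438 to 578), Inmt at 625 (2613 to 2874), Edem2 at 1964 (2041 to 2049), Rps2-ps10 at 9.69 (915 to 2205) and Atp6v0c-ps2 at 82.8 (1159.5 to 1734). Mouse 2 was alone high for Cox8b at 554 (259.9 to 261). Mouse 3 was alone low for mt-Nd5 at 609480 (1456200 to 1651300), Tcn2 at 114400 (186890 to 201100), Slc5a2 at 14901 (27745 to 28864), Ugt2b38 at 1004 (3145 to 3824), mt-Atp8 at 31.7 (138 to 180.1), Gapdh at 69643 (152470 to 170200), Mki67 at 177 (526 to 571), Hmmr at 19.2 (130.1 to 142) and Cyp2d12 at 512 (2107 to 2754). Mouse 3 was alone high for Ldhb-ps at 2462 (177 to 192). Mouse 4 was alone low for Slc22a13b at 11.1 (231 to 248). Mouse 4 was alone high for Gpx6 at 1909 (141 to 198), Laptm4a at 11668 (11424 to 11437) and Gart at 1526 (1489.9 to 1494).

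Of the library measures, the share of reads in the 2 mitochondrial ribosomal RNAs was alone high in mouse 1, at 0.613%, against 0.329% to 0.35% in the others. Among the summed TPM of the 43 lists, 2 had a mouse apart. The mesangial, mural and fibroblast list summed to 694 TPM in mouse 4, against 855 to 884, although in normalised reads mouse 3 was the lowest for most of its genes. The white adipocyte list summed to 1756 TPM in mouse 3, against 984 to 1115; mouse 3 also had the highest TPM for the median measured gene, 13.3 against 7.97 to 10.1.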

How the results depend on the processing

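The ranking of the most variable genes held better than that of the least variable. Of the 100 most variable genes, 78 to 100 were kept under the other scalings, pseudocounts and measures of spread and 89 with GC content and length taken off, and 58 to 85 when 1 mouse was left out. A minimum mean of 20 normalised reads kept 38 and no minimum kept 19, because lower genes entered the ranking; the genes with an SD of log2 of 1 or more then numbered 253 and 2327, against 85. Of the 100 least variable genes, TMM factors kept 87 and the authors' size factors 84, but upper-quartile factors kept 39, total reads outside the mitochondrial genome 0, and GC content and length taken off 9. Leaving out 1 mouse kept 22 to 48 of them. The cause was not tested. The number of genes with an SD of 1 or more was 72 to 115 when 1 mouse was left out and 68 with near-identical copies summed. The 10 most abundant genes took 29.6% when reads were not divided by length and 27.8% with mitochondrial genes left out, against 51.2%; of the 100 most abundant genes, 68 and 92 were kept. The median SD over measured genes was 0.188 to 0.260 when 1 mouse was left out. Without mouse 1, 2, 3 or 4, the SD moved by over 1.5 times in 44 of 170, 14 of 172, 50 of 172 and 15 of 173 genes picked by the naming rule; the rest of the 174 then fell below the minimum mean. The median SD moved as far in 9, 1, 6 and 1 of the 43 lists. With GC content and length taken off it did in 43 of the 174 genes and 2 lists. No paired analysis was possible because 1 group was described and its values come from no test. The 4 mice limit the precision of every SD, and at levels under 100 reads counting error is a large part of it.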

Other observations

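Some genes that no paragraph above describes are given as values only. Guca2b, the natriuretic peptide uroguanylin, averaged 1227 ± 457 TPM and stood at 48774, 26935, 15004 and 19493 normalised reads, highest in mouse 1. Socs2, an inhibitor of growth hormone signalling, stood at 6639, 1259.7, 4223 and 3479.5, and Noct, a circadian phosphatase, at 715, 3461, 2719.8 and 1436. Sectm1b stood at 5890.2, 9473, 2135 and 9389, highest in mice 2 and 4. Within the naming rule, the splicing factor gene Rnps1 stood at 549, 3209.9, 1321 and 1792, and its pseudogene Rnps1-ps at 295, 16.7, 184 and 181. Guca2b and Rnps1-ps were chosen after their values were seen.

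The endothelial list was among the steadier cell type lists, with a median SD of log2 of 0.24 over 19 measured genes and a summed level of 1267, 1525, 1443 and 1548 TPM. Plvap, the protein of fenestral diaphragms, stood at 31637, 26434, 16822 and 23159 normalised reads, lowest in mouse 3. The proteasome and spliceosome lists had median SDs of 0.19 and 0.22, and 4 of 31 and 8 of 35 of their genes were in the least variable 10%. The heat shock chaperones had a median SD of 0.26, and the injury list, whose most abundant gene Spp1 encodes osteopontin and averaged 1086 ± 234 TPM, 0.24. Genes biased to males and to females in mouse kidney had median SDs of 0.38 and 0.30; Ugt2b38, a glucuronosyltransferase, stood at 3145, 3322, 1004 and 3824, lowest in mouse 3.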
